A study of Mus musculus with 3 samples.

Results

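Oxidative phosphorylation is carried out in the inner mitochondrial membrane by 5 protein complexes. Complexes I and II pass electrons from NADH and succinate to coenzyme Q, complex III hands them on to cytochrome c, complex IV transfers them to oxygen, and complex V, the ATP synthase, uses the proton gradient built by complexes I, III and IV to make ATP. Each complex is an assembly of a few catalytic subunits with many accessory ones, most of them encoded in the nucleus, and their messages are abundant in nearly all growing cells. Around gastrulation the pluripotent cells of the embryo are known for an active glycolysis, and the visceral endoderm for a high uptake and turnover of nutrients.

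The genes described here were those whose symbols begin with Ndufa, Ndufb, Ndufc, Ndufs, Ndufv, Uqcr, Cox4i, Cox5, Cox6, Cox7, Cox8 or Atp5, together with Sdha, Sdhb, Sdhc, Sdhd and Cyc1. The rule reads symbols and no measured value, but it was set with earlier results of these data known. The rule found 91 genes among 18193 named genes, with 180 probe sets among 34945 that carried a single gene symbol. They comprised 34 genes of complex I, 4 of complex II, 9 of complex III, 18 of complex IV, including paralogs known mainly from other tissues, and 17 of complex V. The Ndufa prefix also took in 8 assembly factors of complex I (Ndufaf1 to Ndufaf8), and the Cox7 prefix took in Cox7a2l, a factor of respiratory supercomplexes. Cox7b was not among the probe sets with 1 symbol and is not analysed here.

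RNA was taken from hand-separated endoderm, mesoderm and epiblast of ICR mouse embryos at embryonic day 7.5. The epiblast sample held neuroectoderm and primitive streak. Each layer was measured on 1 Affymetrix Mouse Genome 430 2.0 array, whose probe sets are groups of short oligonucleotides against 1 transcript. The sources used here do not say how many embryos went into an array, and these are mixed tissues, so fewer cells of a kind and less RNA per cell cannot be told apart.

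Values are intensities on a linear scale, listed in the order endoderm, mesoderm and epiblast, and differences between layers are given as log2. A gene was read by its probe set of highest mean log2. The floor was the table's overall median, 80.6, and a gene counted as above the floor when its highest layer exceeded it, which 87 of the 91 members and 12785 genes in all did. There was 1 array per layer, so no p-value can be given, and no difference has a replicate check. The error given instead is the spread of the log2 difference between probe sets of the same gene. Brightness depends on the probes, so heights are not compared between genes.

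The labels were checked against layer markers. The summed intensity of 4 endoderm markers was 15006, 1826 and 689.5, that of 5 mesoderm markers was 779, 8403 and 1149.7, and that of 5 epiblast markers was 906, 892 and 7379.5. Visceral endoderm markers were bright in the endoderm sample, with a summed intensity of 61362, 1429 and 1409 over 10 genes, all 10 of them at least 2-fold higher there than in epiblast. Erythroid markers, 6 of 6, were at or below the floor in all layers, and 5 trophoblast markers summed to 964, 728 and 839.5. The part of the visceral endoderm in the differences below was not tested.

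In the deposited values the oxidative phosphorylation genes were brighter in endoderm than in epiblast by a small and even step. Of the members 78 of 87 were higher (89.7%, against 54.5% of all genes above the floor). After quantile normalization the count was 58 of 87 (66.7%, against 40.9% of all genes). It was 53 of 88 (60.2%, against 37.0%) with housekeeping centring, which sets the arrays to the same level of their median housekeeping gene. That gene was Ywhaz on all 3 arrays, so the centring rested on 1 gene, and under it endoderm exceeded epiblast in 0 of the 9 housekeeping genes, with a median log2 difference of -0.23, where it did so in 4 of 9 as deposited. The members' median log2 difference was 0.27, or 1.205-fold, and that of all genes was 0.05. Only 2 members were 2-fold higher, Cox7a1 and Ndufb10, against 12.5% of all genes, and 0 were 2-fold lower, against 4.01%. At least 1.5-fold higher were 7 of the 87 (the same 2 with Ndufb11, Uqcrq, Uqcr11, Ndufs7 and Ndufaf7), where all genes had 21.9%, and 0 were 1.5-fold lower, where all genes had 9.14%. The difference varied little from member to member, with an SD of 0.26 over members and 0.89 over all genes.

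Quantile normalization and housekeeping centring moved the median of all genes for endoderm minus epiblast to -0.11 and -0.19, and the members moved along with it, to 0.10 and 0.04. The distance of the members above the median of all genes was 0.22 as deposited, 0.21 after quantile normalization and 0.15 after cyclic loess. It was 0.10 when only genes brighter than the 75th percentile were kept, where the median of all genes rose to 0.17. Housekeeping centring shifts all genes of an array alike and can change this distance only through which genes pass the floor. As deposited, 74 of 87 members lay above the median of all genes, and 73 and 69 did so after quantile normalization and cyclic loess.

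Mesoderm and epiblast were close to each other. The median over the members was -0.01 for mesoderm minus epiblast. Within 0.1 of 0 on the log2 scale were 54 of 87 members, against 4061 of 12785 genes in all. With a mean intensity over 1000 it was 49 of 75 members and 1256 of 2778 other genes. Of the members 37 were higher in mesoderm, or 42.5%, where all genes had 46.3%. No member reached 2-fold in either direction, against 3.44% of all genes higher and 3.25% lower. At 1.5-fold, 0 members were higher (6.76% of all genes) and 2 were lower, Cox7a1 and the assembly factor Ndufaf3 (6.38% of all genes). Cox7a1 was below the floor in mesoderm, and measured from the floor its epiblast value was only 1.057-fold higher.

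Endoderm minus mesoderm shares the endoderm array with the endoderm and epiblast pair and is no independent reading of it. Here 78 of 87 members were higher in endoderm as deposited, against 57.1% of all genes. With housekeeping centring 43 of 88 were higher (48.9%), against 32.9% of all genes. The median was 0.28 (all genes 0.07), and -0.003 with that centring, where the median of all genes was -0.22. One member, Cox7a1, was 2-fold higher (11.4% of all genes) and 0 were 2-fold lower (3.86%). At 1.5-fold, 9 members were higher (20.2% of all genes) and 0 lower (7.93%).

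Endoderm held the highest value in 76 of 87 members as deposited, against 47.0% of all genes. Leaving out assembly factors and restricted paralogs, it did so in 71 of 73 subunits. The lowest value fell in mesoderm for 42 of these subunits (57.5%) and in epiblast for 30 (41.1%). Of all genes 31.2% were lowest in mesoderm and 33.3% in epiblast.

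**Figure D1:**
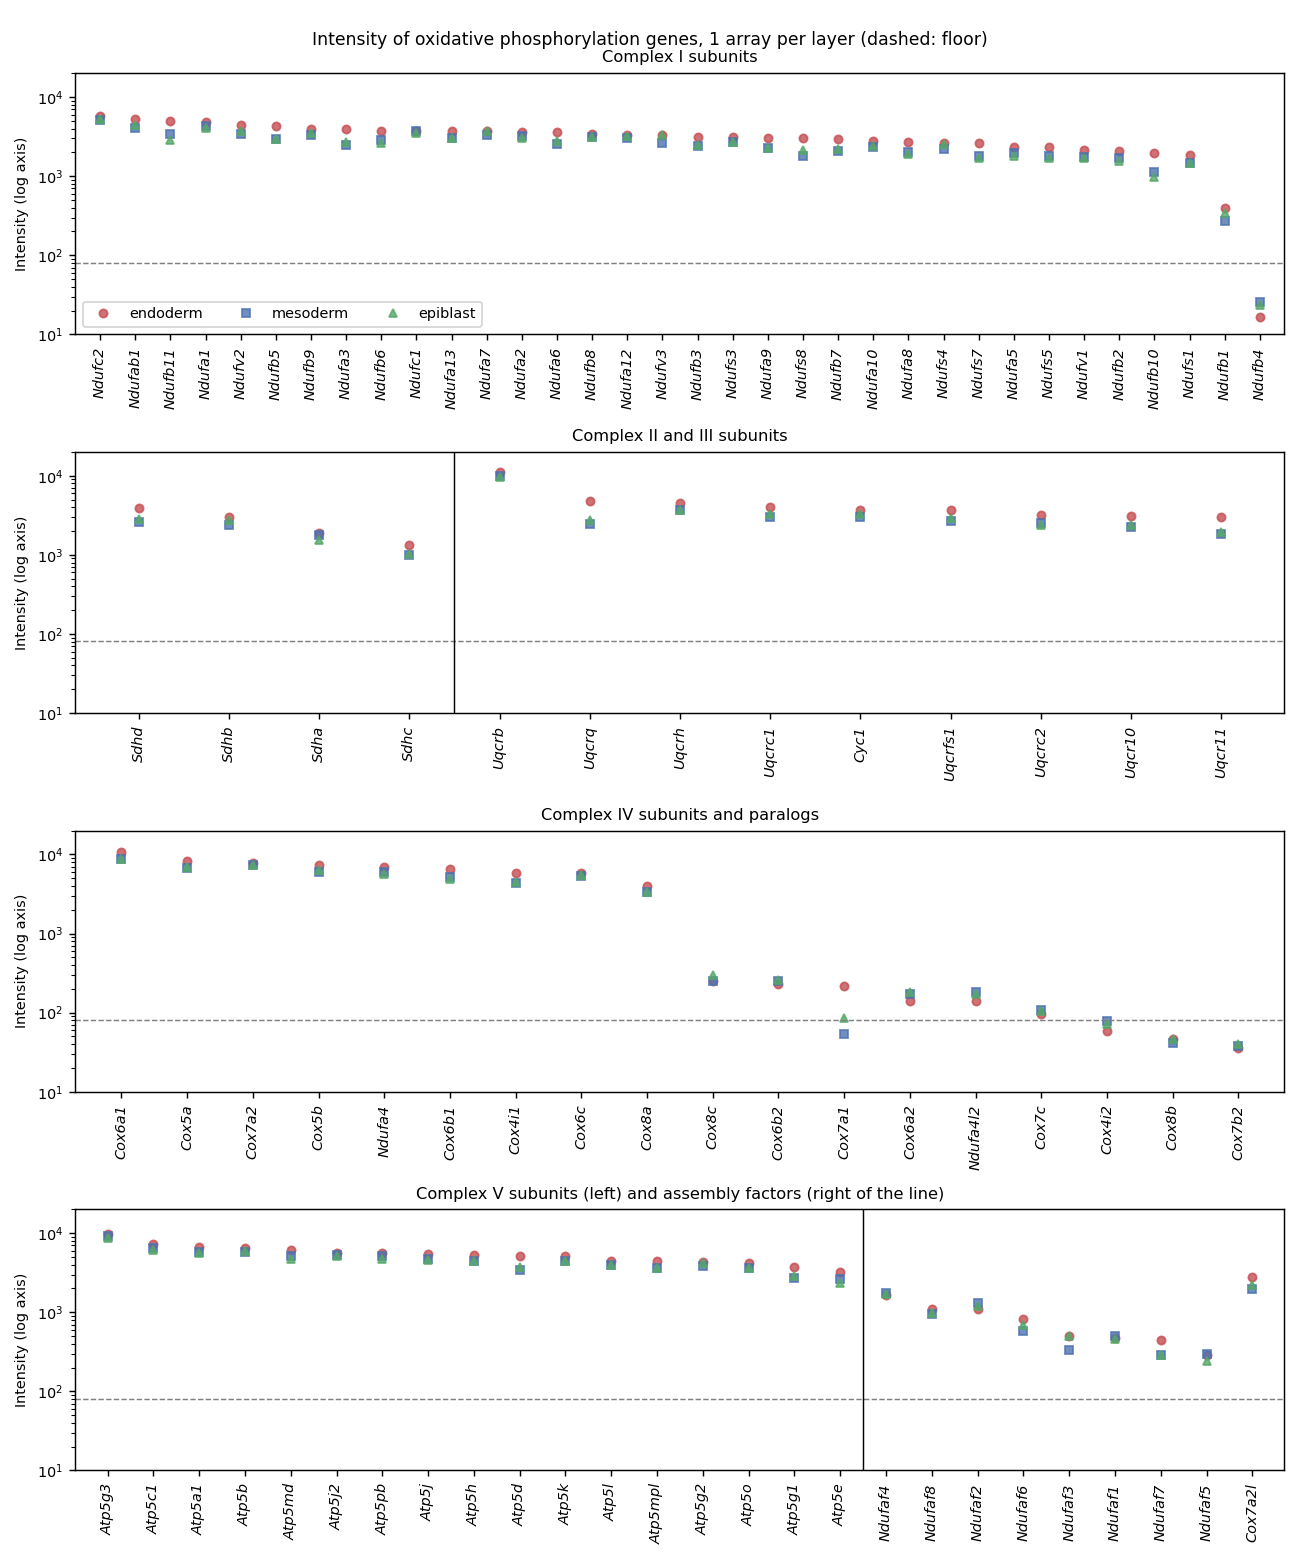
Intensity (log axis) of the 91 genes in endoderm (circles), mesoderm (squares) and epiblast (triangles), 1 array each, with the floor of 80.6 as a dashed line. Endoderm points lie at the top for 76 of 87 genes above the floor in the deposited values, and the restricted complex IV paralogs lie near the floor; heights of different genes come from different probes and are not comparable.

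The members were also compared with other bright genes. Among genes with a mean intensity over 1000, 75 members had a median of 0.28 for endoderm minus epiblast and 2778 other genes had 0.11. For mesoderm minus epiblast the medians were -0.01 and 0.01. Over the 73 subunits the Spearman rank correlation of mean log2 level with endoderm minus epiblast was -0.38, and with endoderm minus mesoderm -0.45. Brighter subunits thus tended to have smaller differences. Over all 87 members these were -0.05 and -0.16. The part of brightness in the differences was not tested.

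Mitochondrial ribosomal proteins were set beside the members. Their 76 genes (Mrpl and Mrps) had a median of 0.21 for endoderm minus epiblast as deposited, with 61 higher (54.5% of all genes). The median was -0.07 after quantile normalization and -0.02 with housekeeping centring. Cytosolic ribosomal protein genes, 40 of them, had a median of 0.01 as deposited and -0.22 with that centring (41 genes). They were not matched to the members for brightness. Set against the median of all genes, the mitochondrial ribosomal genes stood at 0.16 as deposited and 0.04 after quantile normalization. This distance was 0.08 after cyclic loess and 0.17 with housekeeping centring.

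The promoters of the members were searched for 4 motifs, which the rule did not use. Mouse promoters from RefSeq (build GRCm38.p6), each reaching from 250 bases before the transcription start to 50 after it, were matched to 74 of the members. A core of the binding motif of NRF1, a regulator of nuclear genes for respiration, was searched on both strands as GCGCANGCG and found in 20 of 74 members (27.0%) and in 7.03% of 27025 genes. An ETS core, CCGGAAG, bound by GABP and other ETS factors, stood in 19 of 74 members (25.7%) and in 9.93% of all genes. The YY1 letters AANATGGC were found in 17 (23.0%, against 6.96%), and TATAAA in 8 (10.8%, against 15.7%). Matches of different motifs overlapped in 0 members.

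These windows show the NRF1 match in the promoters of the 2 members with the largest and the 2 with the smallest endoderm minus epiblast difference among the members above the floor whose match ended before the start. They lie at chr2:36049339-36049372 on the minus strand (Ndufa8, log2 difference 0.49), chr9:50603895-50603953 on the minus strand (Sdhd, 0.47), chr15:102671055-102671113 on the minus strand (Atp5g2, 0.03) and chr4:24897946-24898004 on the plus strand (Ndufaf4, -0.03). Sequences run 5′ to 3′ along the gene, and capitals mark every match in the window, on either strand, so that overlapping matches make a longer run.
Ndufa8: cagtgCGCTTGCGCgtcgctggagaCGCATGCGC
Sdhd: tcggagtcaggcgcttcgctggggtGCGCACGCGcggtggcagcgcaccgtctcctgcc
Atp5g2: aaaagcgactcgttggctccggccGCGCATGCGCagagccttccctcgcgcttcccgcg
Ndufaf4: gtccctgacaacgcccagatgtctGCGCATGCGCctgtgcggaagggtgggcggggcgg

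The ETS matches chosen the same way lie at chr10:80406856-80406912 (Uqcr11, log2 difference 0.63), chr4:40279622-40279671 (Ndufb6, 0.51), chr9:44920923-44920979 (Atp5l, 0.13) and chr2:119662835-119662877 (Ndufaf1, 0.03), all on the minus strand, with capitals on the match.
Uqcr11: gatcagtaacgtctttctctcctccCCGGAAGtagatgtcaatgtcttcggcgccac
Ndufb6: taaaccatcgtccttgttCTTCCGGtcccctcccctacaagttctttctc
Atp5l: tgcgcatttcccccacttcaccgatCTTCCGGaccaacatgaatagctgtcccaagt
Ndufaf1: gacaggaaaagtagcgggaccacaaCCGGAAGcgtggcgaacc

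Members with and without the NRF1, ETS or YY1 letters had similar medians. For endoderm minus epiblast the median was 0.27 in 19 members above the floor with an NRF1 match and 0.27 in 52 without. The medians for ETS were 0.27 in 19 with and 0.27 in 52 without, and those for YY1 were 0.24 in 17 with and 0.27 in 54 without. Members with TATAAA, 6 in number, had 0.38, and 65 without had 0.27. A match describes letters in a window and is not evidence that a factor was bound.

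Complex I, the NADH dehydrogenase, had 33 members above the floor. As deposited, 32 of 33 were higher in endoderm than in epiblast, with a median of 0.31, and 33 of 33 were higher in endoderm than in mesoderm, with a median of 0.35. These counts were 23 and 26 after quantile normalization, where 40.9% and 42.2% of all genes were higher. They were 21 and 20 with housekeeping centring, where 37.0% and 32.9% of all genes were higher. The medians remained positive under all scalings. Mesoderm minus epiblast had a median of -0.01. The 6 subunits of the catalytic core, most of which carry the flavin or iron-sulphur clusters, had a median of 0.33 for endoderm minus epiblast, and the 27 accessory subunits had 0.28.

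Ndufb10, an accessory subunit of the membrane arm, was 1955, 1120.01 and 977, just past the 2-fold limit over epiblast (log2 1.001) and 1.745-fold over mesoderm. It had a single probe set, and with quantile normalization and housekeeping centring its log2 difference from epiblast was 0.72 and 0.77. Ndufb11, also of the membrane arm, was 4959.9, 3386 and 2859, a log2 difference of 0.80 from epiblast. All 3 of its probe sets gave 0.80 to 1.01, and for mesoderm minus epiblast they gave 0.24 to 0.28. In both of these genes the order was endoderm, then mesoderm, then epiblast.

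Ndufs8, an iron-sulphur subunit of the core, was 3023, 1824 and 2127. Its 6 probe sets all put endoderm first and mesoderm last, with endoderm minus mesoderm from 0.52 to 0.73. Ndufa3, an accessory subunit, was 3947, 2503 and 2667, and its second probe set above the floor gave a like difference from epiblast, 0.59 against 0.57. Ndufs7, another iron-sulphur subunit of the core and named after its values were seen, was 2600.1, 1774 and 1687, a log2 difference of 0.62 from epiblast with 0.60 from its second probe set.

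Other subunits of complex I were nearly level. Ndufa12, an accessory subunit, was 3342, 3062 and 3219.8, and Ndufc1, an accessory subunit of the membrane arm, was 3754, 3682 and 3499.6. Both had an endoderm minus epiblast difference within the probe-set SD of 0.14 and turned negative under quantile normalization (-0.16 and -0.10) and housekeeping centring (-0.17 and -0.13). Ndufa7, named after its values were seen, was the 1 member of the complex not above epiblast in endoderm, at 3674, 3315 and 3703, and its 5 probe sets lay between -0.12 and -0.01. Ndufv3, named likewise, was 3311, 2607 and 3295, with mesoderm low and the other layers alike.

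Complex II, succinate dehydrogenase, also works in the citrate cycle. All 4 subunits were highest in endoderm as deposited, with a median of 0.34 (1.27-fold) for endoderm minus epiblast. That median was 0.07 after quantile normalization and 0.12 with housekeeping centring. Under each of these 3 of 4 were higher, against 40.9% and 37.0% of all genes. Sdha, the flavoprotein that oxidises succinate, was 1903, 1779 and 1536, with mesoderm nearer to endoderm by this probe set. Its second probe set above the floor was 1889, 1589 and 1438, with mesoderm nearer to epiblast. Sdhb, the iron-sulphur subunit, was 2998, 2419 and 2724, with epiblast nearer to endoderm. The membrane anchors Sdhc and Sdhd were 1322, 1003 and 1016, and 3897, 2632 and 2815, in both cases with mesoderm and epiblast within 0.1 of each other on the log2 scale. The head subunits thus had mesoderm minus epiblast differences of opposite sign, 0.21 for Sdha (0.145 by its second probe set) and -0.17 for Sdhb. The probe-set SD was 0.07, and Sdhb had 1 probe set.

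Complex III, the cytochrome bc1 complex, gave the largest median of the complexes for endoderm minus mesoderm, 0.44 over 9 genes as deposited, 0.21 after quantile normalization and 0.16 with housekeeping centring. For endoderm minus epiblast the median was 0.32, and 9 of 9 genes were higher in endoderm (54.5% of all genes). After quantile normalization 8 were higher (40.9% of all genes) and with housekeeping centring 7 (37.0%). Mesoderm was lowest in 7 of 9, against 31.2% of all genes. Uqcrq, a small accessory subunit, was 4753, 2474 and 2719, a log2 difference of 0.81 from epiblast and 0.94 from mesoderm, the largest of the complex. Its other 2 probe sets above the floor were dim and gave 0.50 and -0.12 against epiblast, so its size depended on the bright probe set, and the mean of all probe sets was 0.31. Uqcr11, a very small accessory subunit, was 3011, 1859 and 1947 with a single probe set, 1.62-fold higher in endoderm than in mesoderm.

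The remaining subunits of complex III differed less. Uqcrc2, a core protein, was 3235, 2498 and 2361, and Uqcr10, an accessory subunit, was 3059, 2236 and 2382. Uqcrh, the hinge protein, was 4544, 3742 and 3745, level between mesoderm and epiblast. Uqcrb, which helps to form the quinone site, was 11194, 9969 and 9764, the smallest step of the complex from mesoderm at 0.17. Over the 4 core subunits, Cyc1, Uqcrc1, Uqcrc2 and Uqcrfs1, the median was 0.31 for endoderm minus epiblast and -0.12 for mesoderm minus epiblast.

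Complex IV, cytochrome c oxidase, divided into common subunits and restricted paralogs. The 10 common subunits above the floor had a median of 0.26 for endoderm minus epiblast, with 9 of 10 higher as deposited (54.5% of all genes). Under quantile normalization and housekeeping centring 7 of 10 were higher, against 40.9% and 37.0% of all genes. The 5 restricted paralogs above the floor had a median of -0.28, with 1 of 5 higher. Over all 15 genes the median was 0.23, which turned to -0.07 with housekeeping centring. Mesoderm minus epiblast had a median of -0.01 over the common subunits.

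The restricted paralogs were dim, at most 301 in any layer, though paralogs are read by different probes and their heights are not compared here. Cox4i1, the form of subunit 4 used in most tissues, was 5834, 4377.5 and 4423, while Cox4i2, known from lung and low oxygen, was below the floor in all layers at 59.4, 78.4 and 72.9. Cox6a1, the form of most tissues, was 10598, 8758 and 8794, and Cox6a2, the heart and muscle form, was 139, 174 and 185. Cox6b1 was 6602, 5216 and 4934, and the testis form Cox6b2 was 228, 252 and 255. Cox8a was 4034, 3342 and 3389.5, Cox8b was below the floor at 45.9, 41.5 and 47.0, and Cox8c was 248, 250.5 and 301. Ndufa4, now counted as a subunit of complex IV, was 6962, 5976 and 5582, and its paralog Ndufa4l2, known from hypoxia, was 139, 184 and 173. Cox7b2 was below the floor in all layers, from 35.9 to 39.6.

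Cox7a1, the heart and muscle form of subunit 7a, departed from the other paralogs. It was 216, 54.0 and 85.25, so endoderm exceeded epiblast 2.53-fold, and mesoderm, where the gene was below the floor, at least 2.675-fold. It had 1 probe set and lay near the floor outside endoderm, and it was not counted when the floor was raised to the 75th percentile. Its paralog Cox7a2 was nearly level at 7818, 7286 and 7392, and Cox6c, a small common subunit, was likewise 5772, 5369 and 5527. Cox7c, named after its values were seen, was read here only by dim probe sets, the brighter at 97.5, 108 and 106, and was the 1 common subunit not higher in endoderm.

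**Figure D2:**
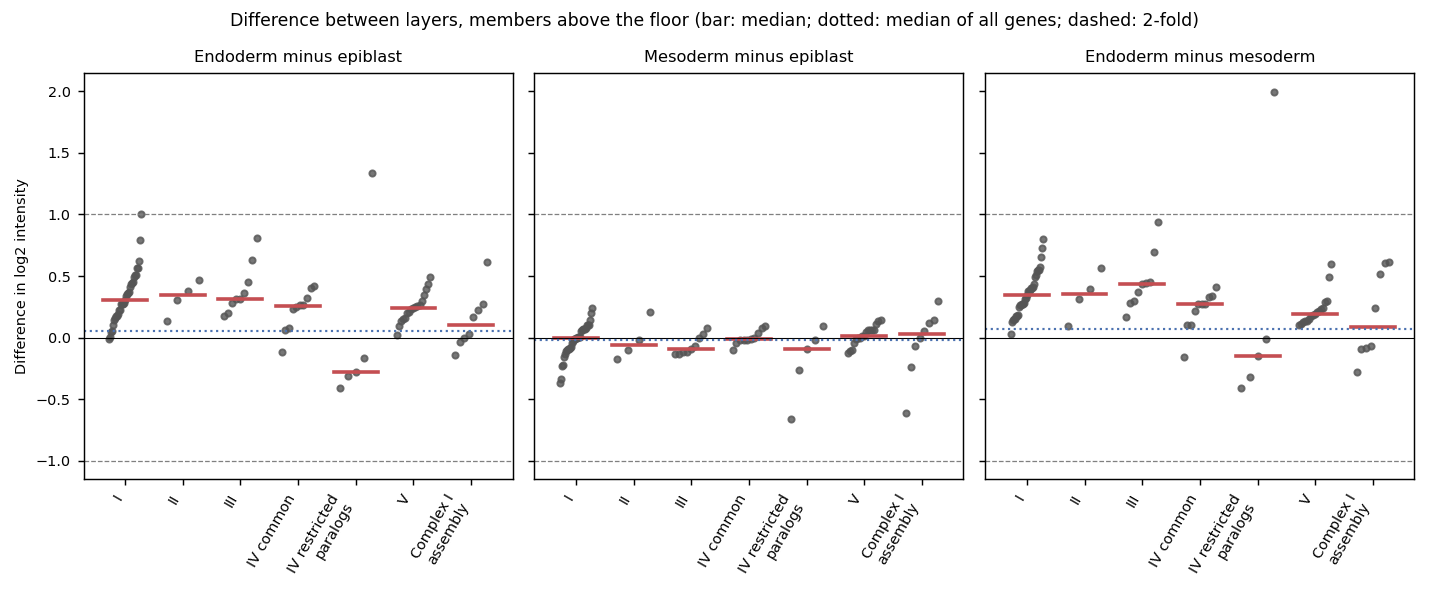
Difference in log2 intensity for each pair of layers, with 1 point per member above the floor, a bar at the median of each group, a dotted line at the median of all genes and dashed lines at 2-fold. In the deposited values the groups of complexes I, II, III and V and the common subunits of complex IV sit above the dotted line in both comparisons with endoderm and close to it for mesoderm minus epiblast, and Cox7a1 is the point past 2-fold among the restricted paralogs; with housekeeping centring the medians of complexes IV and V for endoderm minus mesoderm are negative.

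Complex V, the ATP synthase, was even. Endoderm exceeded epiblast in all 17 genes as deposited, with a median of 0.24 and an SD of 0.12. After quantile normalization and housekeeping centring 13 and 10 were higher, against 40.9% and 37.0% of all genes. Against mesoderm the median was 0.19 as deposited, 0.06 after quantile normalization and -0.08 with housekeeping centring. As deposited and after quantile normalization 17 of 17 genes lay above the median of all genes in that comparison, and 15 did so after cyclic loess. Mesoderm minus epiblast had a median of 0.01, and 12 of 17 genes were within 0.1 of 0, against 4061 of 12785 genes in all.

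The peripheral stalk keeps the head from turning. Its 4 subunits (Atp5h, Atp5j, Atp5o and Atp5pb) lay between 0.21 and 0.27 for endoderm minus epiblast, an SD of 0.02. In the head, where ATP is made, the subunits spread more widely. Atp5d and Atp5e, the delta and epsilon subunits of the central stalk, were 5206, 3431 and 3694, and 3215, 2614 and 2373, with log2 differences from epiblast of 0.50 and 0.44. Atp5b, the catalytic beta subunit, was 6413, 5825 and 5993, a difference of 0.10 that was -0.13 with housekeeping centring. Atp5md, a small membrane subunit, was 6044, 5129 and 4742, and Atp5l, the membrane subunit g, was 4405, 4008 and 4017.

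Subunit c, which forms the rotating ring, is encoded by 3 genes whose mature proteins are the same. Atp5g1 was 3769.8, 2682 and 2873, a log2 difference of 0.39 from epiblast. Atp5g3 was 9765, 9099 and 8719, a difference of 0.16. Atp5g2 was 4297, 3863 and 4222, a difference of 0.03, with a second and dimmer probe set at -0.55. The difference of Atp5g1 exceeded that of Atp5g2 by more than the probe-set SD of 0.14, and the order of these 3 differences was the same after quantile normalization and cyclic loess, with Atp5g2 then at -0.165 and -0.07.

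The prefixes also took in assembly factors. Ndufaf1 to Ndufaf8, which build complex I and are not part of it, had a median of 0.10 for endoderm minus epiblast, with 5 of 8 higher where 54.5% of all genes were, and -0.18 after quantile normalization and -0.13 with housekeeping centring. Against mesoderm 4 of 8 were higher, where 57.1% of all genes were. Ndufaf7, a methyltransferase, was 446, 291 and 291, and Ndufaf3 was 504, 330 and 505, both named after their values were seen. Cox7a2l, which joins complexes III and IV, was 2766, 1942 and 2216, with mesoderm lowest, and its 3 probe sets ranged from 0.21 to 0.41 for endoderm minus epiblast.

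Probe sets of the same member mostly gave the same sign. Of the members, 46 had several probe sets above the floor, 116 in all. For endoderm minus epiblast all probe sets were higher in 37 of these members and all lower in 3 (Cox6a2, Ndufa7 and Ndufaf4), and the signs were mixed in 6 (Atp5g2, Atp5j2, Cox5b, Ndufb9, Ndufs4 and Uqcrq). The pooled SD between probe sets of a member was 0.14 for endoderm minus epiblast, 0.07 for mesoderm minus epiblast and 0.15 for endoderm minus mesoderm. Over the 5536 genes of the array that had more than 1 probe set above the floor, these were 0.40, 0.27 and 0.39. These SDs are spreads on the same 3 arrays and give no error between samples.

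**Figure D3:**
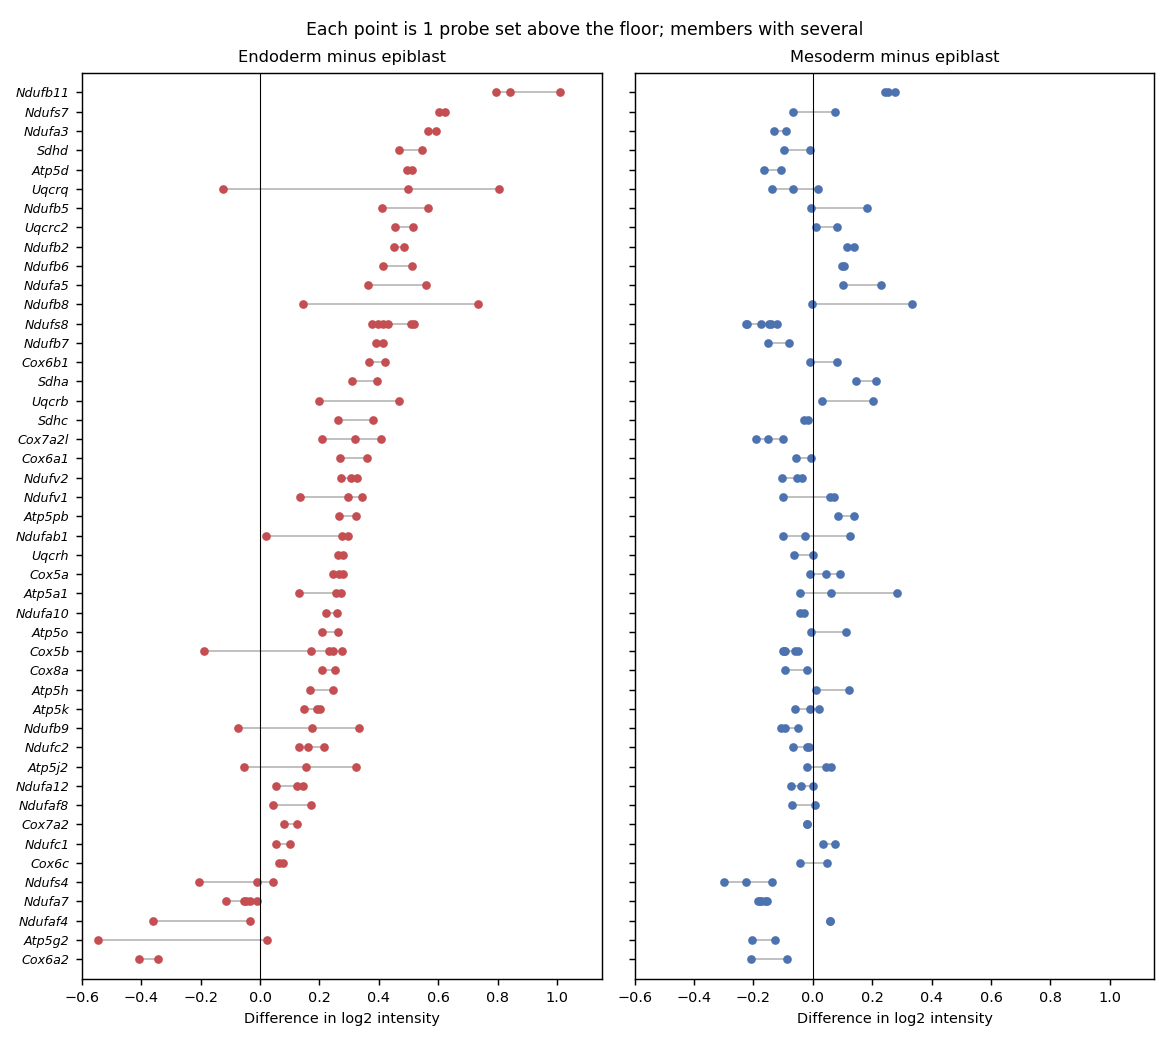
Difference in log2 intensity of each probe set above the floor (points, joined by a line within a gene) for the 46 members with several, for endoderm minus epiblast (left) and mesoderm minus epiblast (right), as deposited. On the left all points of 37 members lie above 0, and Uqcrq has the widest spread, from -0.12 to 0.81; on the right points gather around 0 and those of Ndufb11 lie at 0.24 and above.

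The rest of the pathway was followed in 9 lists. Assembly factors outside the rule, 34 above the floor, had a median of 0.27 for endoderm minus epiblast as deposited and 0.01 after quantile normalization, with 32 of 34 higher as deposited. One, Ttc19, a factor of complex III, was 2-fold higher at 324, 162 and 142. Its dimmer probe sets, at 112, 74.6 and 72.6, and 122, 95.6 and 76.1, had the same order but fell short of 2-fold. Surf1, a factor of complex IV, was 1154, 584 and 648, and Tmem70, a factor of complex V, was 1546, 1081 and 891. Cox15, which makes haem for complex IV, was 803, 560.4 and 509. Its other probe sets had that order except the dimmest, which ran the other way at 130, 131 and 143.

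Electron carriers that feed coenzyme Q from fatty acids differed more than the complexes. Etfdh, the dehydrogenase that passes those electrons to coenzyme Q, was 1026, 375 and 299.7, a log2 difference of 1.77 from epiblast. Etfb and Etfa, the subunits of the flavoprotein that serves it, were 2316, 1072 and 977, and 2075, 1300.4 and 1228. Cycs, the somatic cytochrome c, was nearly level at 6265, 6587.5 and 5964, while the testis form Cyct was dim and past 2-fold lower in endoderm than in epiblast, at 84.96, 93.3 and 177. Of the 12 genes for coenzyme Q synthesis, 10 were higher in endoderm than in epiblast as deposited, where 54.5% of all genes were. Coq9, a lipid-binding protein of that pathway, was the 1 gene 2-fold higher (12.5% of all genes), at 802, 384 and 272. The median of that list was 0.22 as deposited and -0.01 with housekeeping centring. Coq2, the prenyl transferase, was 897, 789 and 618, Coq3 was 530.3, 321 and 361, and Coq6 was 391, 271 and 299. A second and dimmer probe set of Coq3 was level between endoderm and epiblast, at 121, 110 and 120.

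The enzymes that supply NADH followed the complexes or went past them. Endoderm exceeded epiblast in all 13 genes of the citrate cycle above the floor as deposited, against 54.5% of all genes, with a median of 0.31. In 5 of the 13 it did so by at least 1.5-fold, against 21.9% of all genes. After quantile normalization and housekeeping centring 8 of 13 were higher, with medians of 0.10 and 0.08. Of all genes 40.9% and 37.0% were higher then. Ogdh, of the oxoglutarate dehydrogenase complex, was 955, 569 and 519.96. Cs, citrate synthase, was 2816, 1719.8 and 1635, Idh3b, of isocitrate dehydrogenase, was 3331, 2132 and 2092, and Suclg1, of succinyl-CoA ligase, was 3134, 2100.3 and 2038. The remaining gene past 1.5-fold was Sucla2, a partner of Suclg1, at 3644, 2715 and 2405, named after its values were seen.

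Fatty acid oxidation stood well apart from the complexes in size. It had a median of 0.93 over 11 genes for endoderm minus epiblast as deposited, with 10 of 11 higher in endoderm under each of the scalings tried. As deposited 54.5% of all genes were higher, and 5 of the 11 were 2-fold higher, against 12.5% of all genes. Acaa2, the mitochondrial thiolase, was 1124, 403 and 216, and its 3 probe sets all had that order. Acadvl and Acadm, dehydrogenases of very long and medium chains, were 428, 203 and 184, and 2959, 1301 and 1289. Hadh, of a later step, was 7477, 3380.3 and 3636. Slc25a20, the carnitine carrier, was 823, 482 and 376, and Echs1, the enoyl-CoA hydratase, was the 1 gene of the list lower in endoderm, at a log2 difference of -0.40, both named after their values were seen.

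Pyruvate entry gave a mixed picture, with a median of 0.17 and 6 of 10 genes higher as deposited (54.5% of all genes). Its median was -0.04 after quantile normalization. Among the genes higher as deposited were the pyruvate dehydrogenase subunits Pdhb, Dlat and Pdha1, at log2 differences of 0.56, 0.42 and 0.36 from epiblast. Pdhx, of the same complex, was nearly level at 0.05. These were named after their values were seen. A kinase of pyruvate dehydrogenase and both of its phosphatases were lower in endoderm, Pdk3 at 417, 622 and 668, Pdp1 at 103, 149 and 159 and Pdp2 at 129.7, 165 and 204. Pdk1 was 416, 285 and 479, lowest in mesoderm. Genes of glycolysis and lactate went the other way from the complexes, with 0 of 12 higher in endoderm than in epiblast under each scaling. Their median was -0.41 as deposited, where 54.5% of all genes were higher in endoderm. Hk1 and Hk2, the hexokinases, were 159, 166 and 316, and 1893, 1937 and 2771. Pfkm and Pfkp, forms of phosphofructokinase, were 364, 344 and 524, and 133, 222 and 195. In mesoderm 10 of 12 genes of this list were also lower than in epiblast, with a median of -0.17, where 46.3% of all genes were higher in mesoderm.

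Carriers of the inner membrane held single large differences. Slc25a4, an ADP/ATP exchanger, was 7796, 4629 and 2359.6, and its 3 bright probe sets all had that order. Slc25a31, the exchanger known from testis, was 126, 37.4 and 36.8, at least 1.564-fold above epiblast in endoderm, and Ucp1, the uncoupling protein of brown fat, was 92.3, 60.05 and 45.4, near the floor. Vdac1, the channel of the outer membrane, was 5336, 3812 and 3645. Regulators of mitochondrial biogenesis had a median of -0.13 over 13 genes. Polg, the mitochondrial DNA polymerase, was 1827, 1414 and 302, and all 3 of its probe sets were low in epiblast. Ppargc1b, a coactivator of respiratory genes, was 182, 69.4 and 51.9, while its relative Ppargc1a was below the floor in all layers. Nrf1 itself, whose motif is described above, was 343, 329 and 465 by its brightest probe set, and its other probe sets above the floor were 174, 209 and 176, highest in mesoderm, and 198, 187 and 237, highest in epiblast. Tfb1m, a mitochondrial methyltransferase, was 541, 409 and 507. Housekeeping genes, 9 above the floor, had a median of -0.002 for endoderm minus epiblast.

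**Figure D4:**
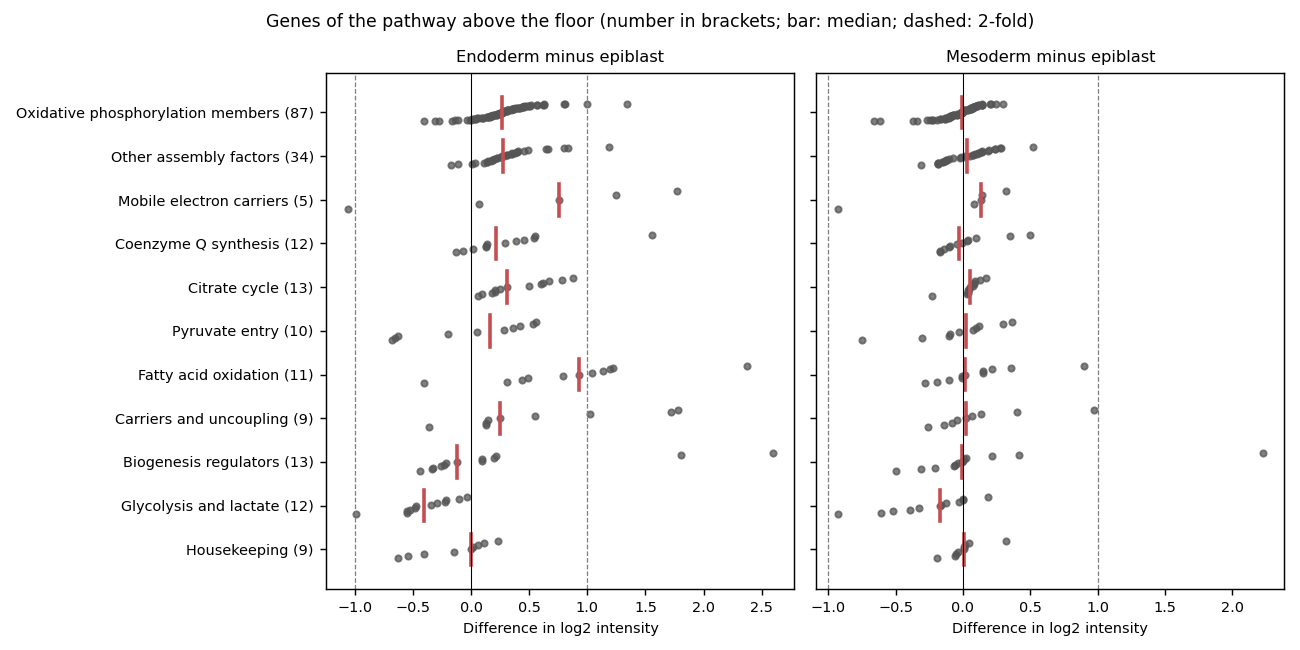
Difference in log2 intensity of the members and of the genes in 10 further lists (number above the floor in brackets) for endoderm minus epiblast (left) and mesoderm minus epiblast (right) as deposited, with a bar at each median and dashed lines at 2-fold. On the left the members centre on 0.27, fatty acid oxidation on 0.93 and glycolysis on -0.41, and the members' median is 0.10 after quantile normalization and 0.04 with housekeeping centring; on the right Polg is the point past 2-fold.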

How the data were processed

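Linear-scale intensities were deposited by the authors for 3 arrays, 1 per layer. According to the labels and methods, background correction and normalization were done by RMA (Robust Multiarray Average). RMA usually yields log2 values, and the step that led to the linear table has no name in these sources. Small values are the most open to it. Probe sets were named from the platform annotation, those with several symbols (932) or none (9160) being left out. The members, lists and rules were chosen with earlier results of these data known. Differences between layers were taken on log2 intensities with pandas 2.3.3 and numpy 2.4.6, and cyclic loess used limma 3.58.1. The calls and medians were tested on simulated data. Genes named are those 2-fold different in any pair, the 4 with the largest and the 2 with the smallest range per complex, all paralogs, members whose probe sets disagree by more than 1 in log2 with opposite signs, and up to 4 genes per list with the largest range. Alternatives were other probe set choices, normalizations, floors, a pseudocount of 32, a 1.5-fold call and subunits only. With 1 array per layer, the number of arrays limits precision.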

Additional observations from a re-analysis of the deposited data

How the results depend on the processing

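No paired analysis was possible because there was 1 array per layer. Across 10 alternatives the members' median for mesoderm minus epiblast stayed between -0.02 and 0.04. For endoderm minus epiblast the members' median was 0.10 after quantile normalization and 0.04 with housekeeping centring, which rests on the level of 1 gene, Ywhaz, on all 3 arrays. The medians of complexes I, II and III were then 0.084, 0.066 and 0.11 after quantile normalization and 0.082, 0.12 and 0.089 with housekeeping centring, that of complex IV was 0.042 and -0.072, and that of complex V 0.108 and 0.017. Complex IV was 0.072 without a floor and 0.092 with the mean of all probe sets. For endoderm minus mesoderm the members' median was 0.09 after quantile normalization and -0.003 with housekeeping centring. Complexes I to V had 0.13, 0.10, 0.21, 0.068 and 0.056 after quantile normalization, and 0.067, 0.076, 0.16, -0.12 and -0.084 with housekeeping centring. The number of members 2-fold higher than epiblast in endoderm was 1 in place of 2 after quantile normalization, cyclic loess, housekeeping centring, a floor at the 75th percentile, a pseudocount of 32 or with subunits only, and 7 at 1.5-fold. Against mesoderm it was 0 with the higher floor or subunits only and 9 at 1.5-fold, and the number lower in mesoderm than in epiblast was 2 at 1.5-fold. The cause of these shifts was not tested. Of the named members' differences under other settings, 568 stayed within the probe-set SD and 152 did not. Housekeeping centring shifts all genes of an array alike, by more than that SD in both comparisons with endoderm. Under it every named member was therefore bound to fall outside the SD in them, and these values are among the 152.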

Other observations

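Probe sets that carry the symbol of a member beside that of another gene were left out of all counts. There were 10, of which 8 were above the floor, and all 8 were higher in endoderm than in epiblast as deposited, with a median of 0.45. The 23 member probe sets below the floor in all layers had medians of -0.13 for endoderm minus epiblast and -0.03 for mesoderm minus epiblast. The 13020 probe sets of other genes below the floor had -0.08 and -0.06.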
